A study of Homo sapiens with 8 samples.

Results

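The comparison described here is the change that confluence brought to the transcriptome of the Z2flag line, a Caco-2/15 line in which CRISPR-Cas9 editing placed a Flag tag at the 3' end of 1 copy of H2AFV. H2AFV is the older symbol of H2AZ2, the gene of the histone variant isoform H2A.Z.2, and both states compared carry this heterozygous tag. The members were chosen by title: the 2 postconfluent libraries, Exp1 and Exp2, harvested 7 days after confluence, and the 2 subconfluent libraries, Exp1 and Exp2, which makes 4 of the 8 libraries of the study. The other 4 come from the Z1flag line, tagged in the same heterozygous way at H2AFZ (H2AZ1), in the same states. All are rRNA-depleted total RNA from Caco-2/15, an established human colon cancer line, sequenced as strand-specific paired ends. Whether the Z2flag line is 1 clone, and whether Exp1 and Exp2 are separate cultures, the sources used here do not state, so the p-values below measure only the spread between these libraries, which may be technical.

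Caco-2 cells grow as undifferentiated colon cancer cells while sparse and, once they touch each other on all sides, slow their division and take on features of small-intestinal enterocytes: a brush border of microvilli, digestive hydrolases at the surface, and the machinery that absorbs sugars, peptides and fat. H2A.Z is a variant of histone H2A that sits mainly at the nucleosomes flanking transcription starts. Its isoforms differ in only a few amino acids and come from separate genes. The SRCAP and TIP60/p400 complexes put H2A.Z into nucleosomes, and ANP32E and INO80 are known for taking it out.

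The subconfluent libraries held 40881682 and 35645383 counts on genes, and the postconfluent libraries 19540632 and 17063826, so sequencing depth differed between the states in the same direction in every library. Values below are CPM, the counts of a gene per fixed number of library counts, with library totals scaled by the trimmed mean of M-values (TMM), given as replicate 1 and replicate 2 of a state in that order. They are not divided by gene length, so levels of different genes are not compared. The share of reads that matched more than 1 place was 6.64 to 6.89% in subconfluent and 9.15 to 9.42% in postconfluent libraries, and the 10 largest genes took 5.36 to 5.46% against 8.70 to 9.09% of gene counts. Epithelial markers were present in all 4 libraries: the adhesion genes CDH1, at 709.6 and 662 CPM subconfluent and 934 and 1189.8 CPM postconfluent (FTLP14 overlaps it), EPCAM at 555 and 565 and then 831 and 746 CPM, and the microvillus gene VIL1 at 543 and 632 and then 418 and 474 CPM (USP37 overlaps it). The intestinal factor CDX2 stood between 44.5 and 78.2 CPM, while CDX1 reached at most 0.165 CPM and KRT20 at most 1.38 CPM. In RNA from a whole dish, a change in the number of cells of a kind and a change in the RNA per cell cannot be told apart. Overlapping genes are counted with a strand setting that the sources used here do not state, so values of genes with an overlapping partner are uncertain; a partner is named beside the values.

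Of 18240 genes tested, 6864 changed with confluence (edgeR quasi-likelihood test, Benjamini-Hochberg adjusted p under 0.05), which is 37.6% of all genes tested. They split into 3335 that rose, 18.3%, and 3529 that fell, 19.3%. At a size of at least 2-fold, 2665 rose (14.6%) and 2280 fell (12.5%). These percentages are the background against which each gene list below is read. The balance of the directions rests on the scaling: with upper-quartile scaling 4098 rose and 2683 fell, so that 60.4% of the calls were higher against 48.6% with the scaling used here. The median over all genes tested was -0.05 on the log2 scale and 0.11 with upper-quartile scaling, a shift larger than 0.1 that bears on every small change given below. Leaving out 1 library moved the counts: 2471 higher and 1706 lower without postconfluent replicate 1, 2650 and 1986 without postconfluent replicate 2, 1572 and 1783 without subconfluent replicate 1, and 1313 and 1581 without subconfluent replicate 2.

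Among genes with a mean of at least 5 CPM, the 10 with the largest rise were HSPA6, GNRH2, LGI4, CEACAM5, FXYD3, PNCK, EMP1, SLC51A, CRYAB and BNIP5. LGI4, a secreted protein known from Schwann cell development (chr19:35124513-35142451, minus strand, GRCh38), was read at 0.0951 and 0.0281 CPM subconfluent and 30.9 and 33.6 CPM postconfluent (log2 fold change 8.87, SE 0.40, adjusted p = 2.35e-05). It went from 5 counts over both subconfluent libraries to 1119 over both postconfluent ones, a depth-scaled ratio of 499.7 (95% interval 213.5 to 1542, counting error only). FXYD3, a regulator of the sodium pump, stood at 0.261 and 0.141 CPM and then 41.9 and 27.3 CPM (log2 fold change 7.37, SE 0.50, adjusted p = 5.38e-05), and SLC51A, which with a partner chain carries bile acids out of the enterocyte and whose locus overlaps PCYT1A on the other strand, at 0.214 and 0.0563 CPM and then 13.8 and 14.01 CPM. The postconfluent libraries lay far above the subconfluent ones for all 10 of these genes, which the choice requires: over all genes tested, both postconfluent values were above both subconfluent ones in 36.3% and below them in 41.2%. The 10 with the largest fall were SCN9A, MYBPH, NDST4, RNU6-2, MYL7, LRRN4, LINC02260, INMT, LGR5 and THSD7B. Muscle-type genes were among them: MYBPH, a myosin-binding protein, went from 41.2 and 41.6 CPM to 2.54 and 1.26 CPM (log2 fold change -4.43, SE 0.38, adjusted p = 0.000112), and MYL7, an atrial myosin light chain, from 15.1 and 20.5 CPM to 1.60 and 0.421 CPM. LRRN4, a leucine-rich repeat protein, went from 73.8 and 71.5 CPM to 4.91 and 3.49 CPM (log2 fold change -4.11, SE 0.25, adjusted p = 4.85e-05). The subconfluent libraries lay above the postconfluent ones for all 10.

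**Figure D1:**
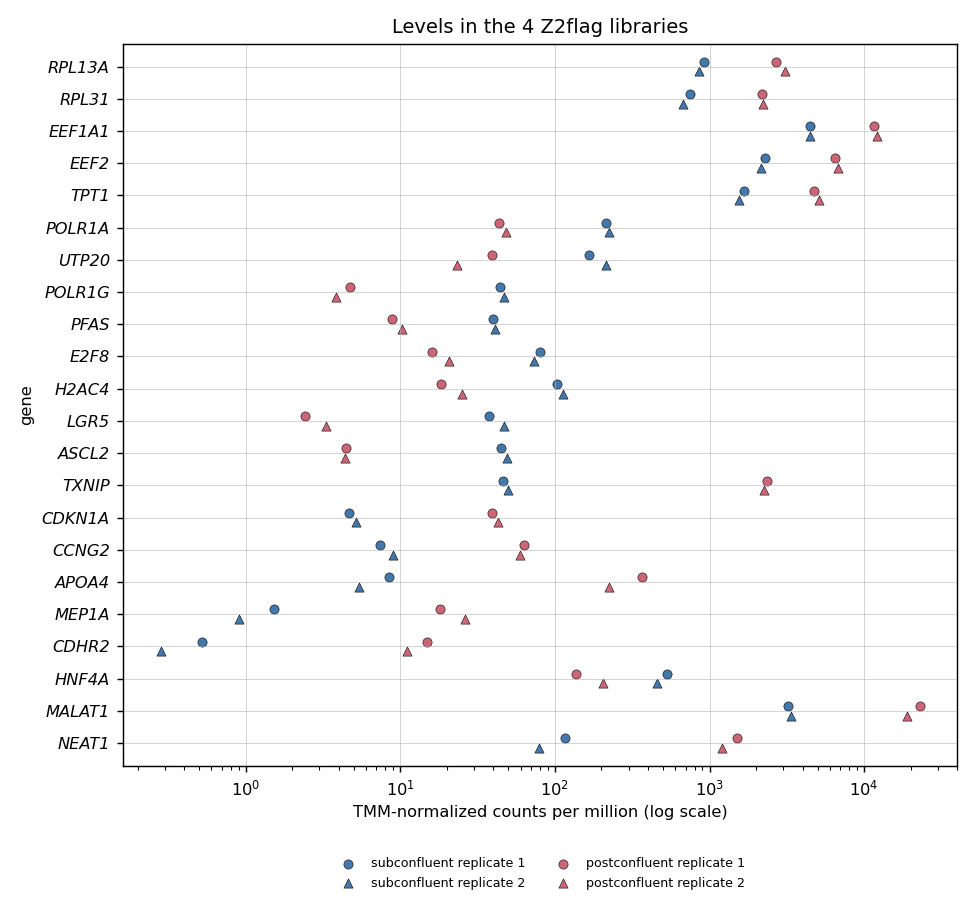
Levels of 22 genes named in the text, in TMM-normalized CPM on a log axis; blue marks are the 2 subconfluent and red marks the 2 postconfluent Z2flag libraries, with circles for replicate 1 and triangles for replicate 2. For every gene shown the red and blue marks are apart, with ribosomal protein genes such as RPL13A higher and RNA polymerase I genes such as POLR1A lower after confluence.

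The tagged gene itself, H2AZ2 (chr7:44826791-44848083, minus strand, GRCh38), was read at 93.1 and 93.1 CPM in subconfluent and 55.3 and 58.2 CPM in postconfluent cells (log2 fold change -0.72, SE 0.20, adjusted p = 0.0173). H2AZ1 (chr4:99948086-99950388, minus strand) stood at 352 and 347 CPM and then at 191 and 187 CPM (log2 fold change -0.89, SE 0.26, adjusted p = 0.0246). Replicates of either gene lay close together and the states did not overlap, but both calls were lost when any 1 of the 4 Z2flag libraries was left out, with adjusted p up to 0.132 for H2AZ2 and 0.149 for H2AZ1. The counts do not tell the tagged copy of H2AZ2 from the untagged one. Of the 33 listed genes for H2A.Z, its exchange complexes and its readers, 11 fell and 1 rose, with a list median of -0.33. The largest of the falls was in RUVBL1, an ATPase shared by the SRCAP, TIP60 and INO80 complexes, from 105 and 112 CPM to 19.8 and 26.3 CPM (log2 fold change -2.23, SE 0.23, adjusted p = 0.000234; EEFSEC and SEC61A1 overlap it). EPC2, a subunit of the TIP60 complex, went from 46.6 and 46.96 to 20.7 and 15.8 CPM (log2 fold change -1.35, SE 0.20, adjusted p = 0.00106). The removal chaperone ANP32E went from 104 and 122 to 64.6 and 47.9 CPM (log2 fold change -1.01, SE 0.21, adjusted p = 0.00440), a call lost without postconfluent replicate 2 or subconfluent replicate 2. The gene that rose was PWWP2B, a paralogue of the H2A.Z reader PWWP2A, from 3.73 and 3.18 to 10.7 and 7.52 CPM (adjusted p = 0.00716; lost without subconfluent replicate 2). The catalytic subunits SRCAP, EP400 and INO80, picked after their values were seen, had log2 fold changes of -0.3, 0.3 and -0.2 and did not pass the test. Without 1 of the Z2flag libraries, 2 to 4 of the 33 were called lower.

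The genes of the ribosome and the genes that build it moved in opposite directions. Of 79 cytosolic ribosomal protein genes, 74 rose and none fell, with a list median of 1.23, whereas of 58 genes for ribosome biogenesis and RNA polymerase I, 42 fell and 2 rose, with a median of -1.14. Ribosomal proteins are the structural parts of the finished ribosome, and their mRNAs belong to a class called TOP mRNAs, known for a start at a C followed by a run of pyrimidines and for translation that depends on the kinase mTOR. Elongation factors EEF1A1 and EEF2 and the protein TPT1 belong to that class too. The windows shown here run from 15 bases before the annotated start of the gene to 15 bases from it, on the strand of the gene, from RefSeq (GRCh38.p14). They are picked examples, with the run in the TOP genes and without it in 2 biogenesis genes, and not every gene of either group is like them. Shares over both groups follow the windows. Capitals mark the unbroken pyrimidine run that begins with a C at the start base.
RPL13A: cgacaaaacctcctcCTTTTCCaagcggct
RPL39: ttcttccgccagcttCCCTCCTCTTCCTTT
RPL31: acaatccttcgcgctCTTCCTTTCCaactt
EEF1A1: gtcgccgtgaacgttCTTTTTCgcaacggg
EEF2: gttgacgtcagcgttCTCTTCCgccgtcgt
TPT1: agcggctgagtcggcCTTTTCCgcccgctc
POLR1A: accgcttccgcgcgcaagcgcacgttgaat
UTP20: ccgtccacgtgacccactcaggctcctcct

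The windows of the 6 TOP genes lie at chr19:49487593-49487622, plus strand (RPL13A), chrX:119791616-119791645, minus strand (RPL39), chr2:101002274-101002303, plus strand (RPL31, which TBC1D8 overlaps), chr6:73521018-73521047, minus strand (EEF1A1), chr19:3985449-3985478, minus strand (EEF2) and chr13:45341169-45341198, minus strand (TPT1). Those of POLR1A and UTP20, which show no such run at the start base, lie at chr2:86105872-86105901, minus strand and chr12:101280090-101280119, plus strand. A promoter entry was matched for 11697 tested genes, and 5.15% of them start at a C followed by at least 4 pyrimidines. The share was 66.7% among the 63 ribosomal protein genes with an entry and 12.2% among the 49 biogenesis genes. It was 8.71% among all genes that rose, which include the ribosomal protein genes, and 2.82% among all that fell. Of the 602 genes with such a start 30.2% rose and 12.3% fell. With the ribosomal protein, DNA replication, mitosis and heat-shock lists left out, 25.5% of 556 rose and 13.1% fell. Of all 11697 with an entry, 2089 rose and 2623 fell. A match of this kind describes the letters at the annotated start and does not show how a gene is regulated.

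RPL13A (chr19:49487554-49492308, plus strand), often used as a reference gene, stood at 925 and 856 CPM in subconfluent and 2692 and 3069.9 CPM in postconfluent cells (log2 fold change 1.69, SE 0.20, adjusted p = 0.000426). RPL39 went from 164 and 155 to 466 and 481 CPM. EEF1A1, which carries tRNAs to the ribosome, went from 4493 and 4454 CPM to 11522 and 12099 CPM (log2 fold change 1.40, SE 0.19, adjusted p = 0.000730). In these genes the replicates of a state differed by far less than the states did. EEF2, which moves the ribosome along the mRNA, went from 2301 and 2141 to 6459 and 6798 CPM (log2 fold change 1.58, SE 0.21, adjusted p = 0.000607), and TPT1 from 1663 and 1546 to 4770.2 and 5092 CPM (log2 fold change 1.62, SE 0.19, adjusted p = 0.000350; TPT1-AS1 overlaps on the other strand). The 5 ribosomal protein genes that did not pass were RPL6, RPL17, RPL36AL, RPS10 and FAU, with log2 fold changes between -0.4 and 0.5. Ribosomal protein genes share sequence with many processed pseudogenes: of 199 such pseudogenes tested, 95 were called higher and 2 lower, so part of the reads may be assigned to either. Without 1 of the 4 Z2flag libraries, 61 to 72 of the 79 were called higher and none lower.

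On the side of ribosome assembly, POLR1A (chr2:86020216-86106155, minus strand), the largest subunit of RNA polymerase I, which transcribes the ribosomal RNA precursor, went from 214 and 224 CPM to 43.7 and 47.9 CPM (log2 fold change -2.26, SE 0.18, adjusted p = 0.000103). POLR1G, another subunit of that polymerase, went from 44.1 and 46.6 to 4.74 and 3.85 CPM (log2 fold change -3.40, SE 0.35, adjusted p = 0.000234; ERCC1 and PPP1R13L overlap it). UTP20, a factor of the small-subunit processome, went from 167 and 216 to 39.03 and 23.4 CPM (log2 fold change -2.61, SE 0.27, adjusted p = 0.000234). All 3 were lower in both postconfluent libraries than in either subconfluent one. MRTO4, an assembly factor of the large subunit, had 83.9 and 88.2 CPM and then 22.8 and 20.03 CPM (EMC1 overlaps it). POLR1D, shared by RNA polymerases I and III, rose from 79.1 and 76.8 to 133 and 153 CPM (adjusted p = 0.00430; lost without either subconfluent replicate), and the other gene that rose was TAF1D, at a log2 fold change of 0.7. The count of 42 was 25 without postconfluent replicate 2 and 32 to 41 without 1 of the other Z2flag libraries.

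**Figure D2:**
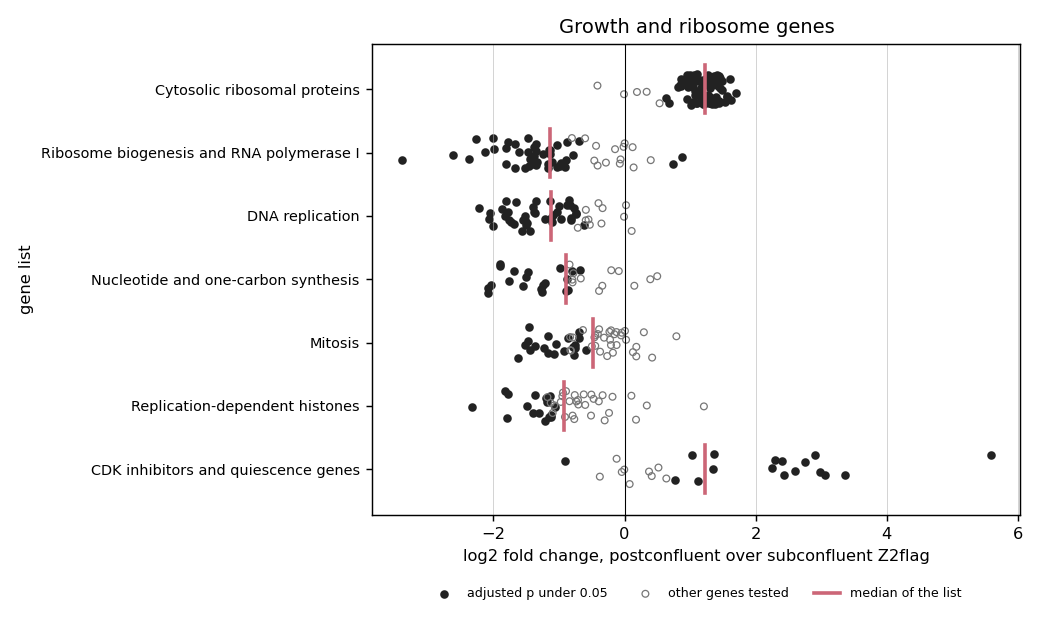
Log2 fold changes of the genes tested in 7 lists on the ribosome, DNA replication, nucleotides, mitosis, histones and growth arrest, postconfluent over subconfluent Z2flag; filled points passed the adjusted p of 0.05, open points did not, and the red bar is the median of the list. Ribosomal protein genes gather around their median of 1.23 while biogenesis genes spread around -1.14 and mitosis genes around -0.48.

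Genes of DNA replication fell together: 40 of 51 were lower and none was higher, with a median of -1.12. E2F8, a late E2F factor, went from 80.5 and 73.2 CPM to 16.2 and 20.6 CPM (log2 fold change -2.07, SE 0.27, adjusted p = 0.000598). CDC7, the kinase that fires origins, went from 41.7 and 43.1 to 14.9 and 11.4 CPM, and GINS3, a part of the replicative helicase, from 25.4 and 22.9 to 4.47 and 5.95 CPM. Of 32 genes of nucleotide and one-carbon synthesis 20 fell and none rose. DHODH and UMPS, which act in the last steps of pyrimidine synthesis, went from 22.2 and 21.9 to 5.18 and 5.59 CPM (log2 fold change -2.03, SE 0.24, adjusted p = 0.000363) and from 115 and 112 to 36.2 and 45.6 CPM, and PFAS of purine synthesis from 39.7 and 40.8 to 8.82 and 10.2 CPM (CTC1 overlaps it). Every subconfluent value of these genes was above every postconfluent value. Of 46 replication-dependent histone genes tested, 16 fell and none rose. H2AC4, an H2A gene, went from 104 and 113 to 18.4 and 24.96 CPM (log2 fold change -2.32, SE 0.33, adjusted p = 0.000866), and the linker histone gene H1-5 from 759 and 809 to 185 and 258 CPM (adjusted p = 0.00849; lost without postconfluent replicate 1). The histone count moved both ways: it was 2 without postconfluent replicate 1, 6 without postconfluent replicate 2, 5 without subconfluent replicate 1 and 4 without subconfluent replicate 2, but 33 without either postconfluent Z1flag library, 34 in the fit of the Z2flag libraries alone and 32 without the filter on low counts. With upper-quartile scaling it was 10. With 1 Z2flag library left out, 20 to 23 of the DNA replication genes and 13 to 15 of the nucleotide genes were called lower.

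Mitosis genes had a median closer to 0. Of 52, 20 fell and none rose, with a median of -0.48 against -1.12 for DNA replication. SMC2, a condensin subunit, went from 141 and 199 CPM to 67.6 and 64.3 CPM (log2 fold change -1.37, SE 0.21, adjusted p = 0.00108), NCAPG, another condensin subunit, from 145 and 169 to 64.2 and 50.1 CPM (LCORL overlaps it), and HMMR, a spindle protein, from 128 and 160.0 to 44.99 and 61.5 CPM. The proliferation marker MKI67 stood at 458 and 566 CPM and then 175 and 263 CPM (log2 fold change -1.22, SE 0.25, adjusted p = 0.00451). In contrast, the mitotic kinase CDK1 was read at 408 and 423 CPM and then 525 and 416 CPM (log2 fold change 0.18, SE 0.28, adjusted p = 0.637), and the topoisomerase TOP2A at 747 and 894 and then 883 and 786 CPM (adjusted p = 0.932), so these did not pass. MKI67, CDK1 and TOP2A were picked after their values were seen. Without 1 of the Z2flag libraries, 7 to 12 mitosis genes were called lower, and with upper-quartile scaling 13; without either postconfluent Z1flag library 2 were called higher. DNA replication and mitosis genes are known for different promoter elements, bound by E2F factors and at the cell cycle homology region. The letters TTTCCCGC or TTTGGCGC (E2F) or their complements were found in 43.2% of the 44 DNA replication promoters, in 4.44% of the 45 mitosis promoters and in 3.53% of all 11697. The letters TTTGAA or TTCAAA were in 68.9% of the mitosis promoters, 2.27% of the DNA replication promoters and 10.0% of all. Each window held 250 bases before and 50 after the start and both strands were searched. The 60-base stretches that follow show such matches in capitals, for the members with the smallest p whose match lies upstream of the start.
PCNA: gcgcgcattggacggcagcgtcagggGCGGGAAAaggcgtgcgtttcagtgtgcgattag
MCM3: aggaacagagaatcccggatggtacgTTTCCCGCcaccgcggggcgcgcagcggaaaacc
POLA1: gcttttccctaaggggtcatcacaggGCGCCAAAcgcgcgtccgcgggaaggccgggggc
NCAPG: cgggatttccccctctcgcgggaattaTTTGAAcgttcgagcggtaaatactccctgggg
ASPM: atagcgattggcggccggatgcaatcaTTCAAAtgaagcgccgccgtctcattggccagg
MKI67: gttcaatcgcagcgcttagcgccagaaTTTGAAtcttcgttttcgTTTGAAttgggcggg

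These stretches are RefSeq sequence (GRCh38.p14) at chr20:5126648-5126707, minus strand (PCNA, the sliding clamp), chr6:52284883-52284942, minus strand (MCM3, a helicase subunit), chrX:24693755-24693814, plus strand (POLA1, the primase-associated polymerase), chr4:17810917-17810976, plus strand (NCAPG), chr1:197146750-197146809, minus strand (ASPM, a spindle pole protein) and chr10:128126438-128126497, minus strand (MKI67). PCNA went from 243 and 248 CPM to 88.2 and 78.3 CPM, MCM3 from 231 and 227 to 80.7 and 78.5 CPM and ASPM from 279.7 and 395 to 88.5 and 146 CPM (SEPTIN14P12 overlaps it). Of the 413 tested genes with the E2F letters in the window, 32.7% fell and 12.3% rose. Of the 1172 with the cell cycle homology letters, 25.9% fell and 13.7% rose. The base for both is the 11697 tested genes with a promoter entry, of which 2623 fell and 2089 rose. The presence of the letters is a description and not evidence of binding.

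Genes that hold back the cell cycle moved the other way: of 26, 16 rose and 1 fell, with a median of 1.23. TXNIP (chr1:145992435-145996600, minus strand), an arrestin-like inhibitor of glucose uptake, went from 46.2 and 49.6 CPM to 2348 and 2264 CPM (log2 fold change 5.59, SE 0.28, adjusted p = 2.35e-05). CDKN1A, the CDK inhibitor p21, went from 4.68 and 5.18 to 39.5 and 42.8 CPM (log2 fold change 3.06, SE 0.21, adjusted p = 5.38e-05). MXI1, a MYC antagonist, went from 8.34 and 7.01 to 53.7 and 67.7 CPM and CCNG2, an atypical cyclin linked to arrest, from 7.44 and 8.92 to 62.7 and 59.5 CPM. In all 4 genes the postconfluent libraries were several times above both subconfluent ones. The exception was RBL1, the pocket protein p107, which fell from 49.8 and 53.5 to 28.9 and 25.9 CPM (adjusted p = 0.00374; lost without subconfluent replicate 2). CDKN1B, the CDK inhibitor p27, was read at 149 and 164 CPM and then at 202 and 204 CPM and did not pass (adjusted p = 0.301; a gene without a symbol overlaps it); it was picked after its values were seen.

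Intestinal stem cell genes and targets of Wnt signalling fell in 15 of 25 cases and rose in 2. LGR5 (chr12:71439770-71586310, plus strand; TSPAN8 overlaps it on the other strand), the receptor that marks crypt stem cells, went from 37.6 and 46.8 CPM to 2.43 and 3.31 CPM (log2 fold change -3.88, SE 0.36, adjusted p = 0.000149). ASCL2, a stem cell transcription factor, went from 45.1 and 49.3 to 4.47 and 4.39 CPM (log2 fold change -3.41, SE 0.42, adjusted p = 0.000478). The Wnt feedback inhibitors NKD1 and ZNRF3 went from 104 and 95.6 to 13.9 and 26.6 CPM and from 109 and 106 to 18.4 and 32.5 CPM (ZNRF3-IT1 overlaps ZNRF3 and a gene without a symbol overlaps NKD1). In both feedback genes postconfluent replicate 2 stayed nearer to the subconfluent level than replicate 1. SOX4 rose from 45.99 and 55.4 to 114 and 98.2 CPM (adjusted p = 0.00266; lost without subconfluent replicate 1), and the other gene that rose was the ephrin receptor EPHB3. Without 1 of the 4 Z2flag libraries, 10 or 11 genes of this list were called lower. The count of genes that rose was 4 without either postconfluent Z1flag library and 1 without subconfluent Z2flag replicate 1.

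The transcription factors of the intestinal epithelium did not move in 1 direction: 10 of 33 rose and 6 fell, with a median of 0.17. The share that fell was near the 19.3% of all genes tested. ELF3, an epithelial ETS factor, went from 17.5 and 17.8 CPM to 247 and 147 CPM (log2 fold change 3.48, SE 0.37, adjusted p = 0.000242; ELF3-AS1 overlaps it). CREB3L3, an activator of lipid genes in the ileum and liver, went from 3.09 and 1.60 to 28.4 and 18.8 CPM, BHLHE40, a basic helix-loop-helix repressor, from 2.97 and 3.07 to 69.7 and 54.01 CPM, and the nuclear receptor NR1I3 from 0.499 and 0.310 to 5.84 and 9.08 CPM (TOMM40L overlaps it). HNF4A (chr20:44355700-44434596, plus strand), a nuclear receptor central to enterocyte and liver gene expression, fell from 529 and 460.4 to 137 and 206 CPM (log2 fold change -1.53, SE 0.23, adjusted p = 0.00106; HNF4A-AS1 overlaps it). Its highest postconfluent value was under its lowest subconfluent value. CDX2 did not pass (log2 fold change 0.02, SE 0.28, adjusted p = 0.953). Without 1 of the Z2flag libraries, 6 to 10 of the list were called higher and 2 to 5 lower.

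Structural and digestive genes of the brush border rose more often than they fell. Of 17 surface hydrolases tested, 9 rose and 2 fell, with a median of 1.77. MEP1A, the alpha subunit of meprin, went from 1.52 and 0.900 CPM to 18.03 and 26.1 CPM (log2 fold change 4.17, SE 0.40, adjusted p = 0.000178). ALPI, intestinal alkaline phosphatase, went from 12.9 and 9.37 to 66.4 and 46.01 CPM (log2 fold change 2.33, SE 0.29, adjusted p = 0.000466), and aminopeptidase N, ANPEP, from 2.33 and 1.32 to 15.5 and 24.2 CPM (log2 fold change 3.43, SE 0.47, adjusted p = 0.000676). Postconfluent replicate 1 was the higher for ALPI and replicate 2 the higher for MEP1A and ANPEP. ENPEP, aminopeptidase A, fell from 4.52 and 3.91 to 0.827 and 0.902 CPM (log2 fold change -2.28, SE 0.47, adjusted p = 0.00443; ZNF969P overlaps it). Sucrase-isomaltase, SI, a common marker of Caco-2 differentiation that was picked after its values were seen, was read at 0.333 and 0.310 CPM and then at 0.221 and 0.662 CPM (log2 fold change 0.43, SE 1.21, adjusted p = 0.799), so it did not pass. Among 27 genes of the microvillus and terminal web, 14 rose and 2 fell. CDHR2, an adhesion protein between microvillus tips, went from 0.523 and 0.281 to 14.8 and 11.1 CPM (log2 fold change 4.98, SE 0.55, adjusted p = 0.000296; GPRIN1 overlaps it), EPS8L3 from 8.86 and 8.33 to 44.5 and 35.2 CPM (a gene without a symbol overlaps it) and the unconventional myosin gene MYO15B from 7.08 and 4.87 to 89.1 and 68.99 CPM. MYO1D, a class I myosin, fell from 641 and 663 to 284 and 284 CPM (log2 fold change -1.20, SE 0.18, adjusted p = 0.00115). With 1 Z2flag library left out, 4 to 7 hydrolases and 8 to 13 microvillus genes were called higher, and 1 gene of each list was called lower.

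Genes of fat handling and transport also rose more often than they fell. The list for lipid absorption and lipoproteins had 28 tested genes, of which 17 rose and none fell. APOA4 (chr11:116820700-116823306, minus strand), an apolipoprotein of chylomicrons, went from 8.41 and 5.43 CPM to 368 and 224 CPM (log2 fold change 5.42, SE 0.40, adjusted p = 7.27e-05). APOC3, which slows the clearance of lipoproteins, went from 44.8 and 31.1 to 218 and 601 CPM (log2 fold change 3.43, SE 0.49, adjusted p = 0.000837), with postconfluent replicate 2 far above replicate 1. The lipid droplet protein CIDEC went from 7.80 and 7.68 to 60.9 and 42.6 CPM, and ANGPTL4, an inhibitor of lipoprotein lipase, from 0.214 and 0.225 to 5.02 and 4.21 CPM (RAB11B-AS1 overlaps it). Transporters of nutrients and ions numbered 40 in the test, 18 of them higher and 7 lower after confluence. Over all genes tested the shares were 18.3% and 19.3%. The creatine transporter SLC6A8 went from 3.83 and 3.996 to 64.2 and 85.5 CPM (log2 fold change 4.26, SE 0.31, adjusted p = 6.42e-05; PNCK overlaps it), and the lactate exporter SLC16A3 from 2.04 and 1.49 to 54.9 and 25.02 CPM (CSNK1D overlaps it). SLC12A2, the sodium-potassium-chloride cotransporter of secretory crypt cells, fell from 249.7 and 326 to 38.8 and 37.3 CPM (log2 fold change -2.92, SE 0.35, adjusted p = 0.000427). Its subconfluent values were several times its postconfluent ones. With 1 Z2flag library left out, 9 to 17 lipid genes and 8 to 18 transporters were called higher; the lowest counts were those without subconfluent replicate 2.

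Genes better known from the liver were also expressed and rose: of 31 tested genes for liver-type secreted proteins, 17 rose and none fell, with a median of 1.89. AHSG, fetuin-A, was read at 251 and 225 CPM and then 1857 and 3272 CPM (log2 fold change 3.43, SE 0.48, adjusted p = 0.000767; HRG-AS1 overlaps it). SERPINA1, alpha-1-antitrypsin, which enterocytes make too, went from 286 and 206 to 1249 and 2379 CPM (log2 fold change 2.88, SE 0.40, adjusted p = 0.000738), and antithrombin, SERPINC1, from 1.83 and 1.01 to 15.7 and 24.9 CPM. Postconfluent replicate 2 was the highest of the 4 libraries for all 3. Albumin, ALB, stood at 13.998 and 6.08 CPM and then 26.8 and 62.4 CPM (adjusted p = 0.0318), a call lost in 8 of the alternative settings, DESeq2 and the replicate block among them. In xenobiotic metabolism 15 of 38 genes rose and 2 fell. The aldo-keto reductases AKR1C1, AKR1C2 and AKR1C3, whose sequences are near-identical so that reads may be split between them, went from 10.4 and 8.19 to 149 and 98.3 CPM, from 2.57 and 2.08 to 40.4 and 29.7 CPM and from 7.82 and 6.61 to 49.3 and 65.5 CPM. The efflux pump ABCC3 went from 28.6 and 24.1 to 119 and 168 CPM (log2 fold change 2.45, SE 0.28, adjusted p = 0.000362). The acetyltransferase NAT1 fell from 13.6 and 15.4 to 3.53 and 5.11 CPM (log2 fold change -1.75, SE 0.32, adjusted p = 0.00255). Without 1 Z2flag library, 10 to 16 liver-type and 7 to 11 xenobiotic genes were called higher.

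Markers of other intestinal cells gave a mixed picture. Of 20 colonocyte markers, 11 were tested, 6 rose and none fell, whereas CA1, MS4A12 and CLCA4 had no count in any Z2flag library. CEACAM1 went from 0.784 and 0.422 CPM to 45.3 and 16.6 CPM (log2 fold change 5.66, SE 0.59, adjusted p = 0.000244; LIPE-AS1 overlaps it) and HHLA2 from 0.879 and 0.478 to 18.7 and 18.3 CPM. Of 13 goblet cell markers tested, 8 rose and 1 fell: MUC13, a membrane mucin also found on enterocytes, went from 1.45 and 1.18 to 61.4 and 27.01 CPM (log2 fold change 5.06, SE 0.67, adjusted p = 0.000613), the trefoil factor TFF1 from 1.35 and 1.46 to 26.8 and 45.1 CPM and AGR2, a disulfide isomerase needed for mucin, from 267 and 294 to 497 and 601 CPM (adjusted p = 0.00741; lost without either subconfluent replicate). The gene that fell was REP15. ATOH1, the factor that specifies secretory cells, had no count. Of 21 enteroendocrine markers 10, CHGA and NEUROD1 among them, had no count and 1 of 4 tested rose, SCGN, from 3.09 and 2.53 to 7.55 and 8.42 CPM (lost without either subconfluent replicate). The summed level of 12 fibroblast markers was 203.6 and 203.6 CPM in subconfluent and 87.1 and 72.4 CPM in postconfluent libraries, with PDGFRA at 89.1 and 85.3 and then 12.1 and 7.22 CPM and COL1A2 and POSTN without a count. Of 5 fibroblast markers tested 3 fell and 1, COL1A1, rose. The 18 leukocyte and endothelial markers summed to 24.0 and 21.9 CPM and then to 30.2 and 30.8 CPM, with MS4A1 and KDR at no count. The part that such cells had in the results was not tested. Without 1 Z2flag library, 5 to 9 goblet and 4 to 6 colonocyte markers were called higher.

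Central metabolism shifted unevenly. Of 35 genes of glycolysis, gluconeogenesis and the hypoxia response, 16 rose and 1 fell, with a median of 1.05. NDRG1, a hypoxia- and differentiation-induced gene, went from 5.77 and 3.15 CPM to 188 and 268 CPM (log2 fold change 5.67, SE 0.35, adjusted p = 4.85e-05). The gluconeogenic enzyme PCK1 went from 0.0475 and 0.0281 to 10.6 and 7.34 CPM, which is 3 counts over both subconfluent libraries and 314 over both postconfluent ones (depth-scaled ratio 233.7, 95% interval 79.2 to 1139, counting error only). ENO2 and ALDOC, isoforms of glycolytic enzymes, went from 1.92 and 2.31 to 83.2 and 43.4 CPM (LRRC23 overlaps ENO2) and from 13.5 and 13.3 to 75.7 and 113 CPM. The gene that fell was EGLN3, an oxygen-sensing hydroxylase, from 32.7 and 39.4 to 12.4 and 11.01 CPM (log2 fold change -1.62, SE 0.22, adjusted p = 0.000647; SPTSSA overlaps it). The enzymes GAPDH, ENO1 and PKM, picked after their values were seen, did not pass (log2 fold changes 0.8, -0.1 and -0.1). Of 43 nuclear-encoded genes of the respiratory chain 12 fell and none rose, with small changes and a median of -0.24; NDUFB3 of complex I went from 54.3 and 56.1 to 20.6 and 25.4 CPM (log2 fold change -1.26, SE 0.23, adjusted p = 0.00277; HYCC2 overlaps it). Without 1 Z2flag library 11 to 14 glycolysis and hypoxia genes were called higher and 3 or 4 respiratory chain genes lower. Fatty acid oxidation and ketone synthesis had 8 of 30 genes higher and 6 lower: CPT1A, which admits fatty acids to mitochondria, rose from 9.93 and 6.30 to 36.6 and 35.01 CPM (log2 fold change 2.14, SE 0.26, adjusted p = 0.000438), while ECHS1, the enoyl-CoA hydratase of the same pathway, fell from 267 and 253 to 83.96 and 105 CPM (log2 fold change -1.46, SE 0.23, adjusted p = 0.00127); without 1 Z2flag library 4 to 9 genes of this list were called higher and 2 to 5 lower. Of all genes tested 18.3% rose and 19.3% fell, and the share of fatty acid oxidation genes that fell was near this. Mitochondrial genes cannot be described, since all 37 identifiers for them are at 0 in all 8 libraries.

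In cholesterol synthesis and uptake 10 of 31 genes rose and 5 fell, beside 18.3% and 19.3% of all genes tested. Among the genes that rose, INSIG1, which holds the sterol sensor SCAP in the endoplasmic reticulum, went from 104 and 112 CPM to 636 and 910.4 CPM (log2 fold change 2.84, SE 0.32, adjusted p = 0.000321). HMGCS1, which makes HMG-CoA, went from 431 and 446 to 1403 and 1784 CPM, MSMO1, a later enzyme, from 150.2 and 152 to 504 and 698 CPM, and the transcription factor SREBF2 from 125 and 124 to 289 and 327 CPM (log2 fold change 1.31, SE 0.20, adjusted p = 0.00104; SREBF2-AS1 overlaps it). Postconfluent replicate 2 was the higher of its pair in all 4. ACACA, which commits acetyl-CoA to fatty acids, fell from 259.6 and 258 to 126 and 156 CPM (adjusted p = 0.00696; lost without postconfluent replicate 1 or either subconfluent replicate). The counts were 12 higher and 0 lower without postconfluent replicate 1, 6 and 1 without subconfluent replicate 1, and 6 and 0 without subconfluent replicate 2. With upper-quartile scaling 2 were called lower.

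Many stress and signalling genes rose. Of 24 AP-1 and immediate early genes, 15 rose and 1 fell, with a median of 2.30. JUNB, a subunit of AP-1, went from 3.75 and 4.28 CPM to 60.9 and 35.6 CPM (log2 fold change 3.59, SE 0.30, adjusted p = 0.000112; HOOK2 overlaps it), KLF10 from 16.3 and 19.9 to 236 and 149.7 CPM (log2 fold change 3.42, SE 0.29, adjusted p = 0.000112) and the phosphatase DUSP1, which switches off MAP kinases, from 12.98 and 14.5 to 189.5 and 100.1 CPM. ZFP36, which degrades AU-rich mRNAs, went from 3.73 and 4.47 to 54.2 and 31.9 CPM. Postconfluent replicate 1 was the higher for all 4 genes. DUSP2 fell from 14.6 and 12.04 to 6.34 and 2.65 CPM (lost without postconfluent replicate 2 or subconfluent replicate 1). Of 28 genes of the unfolded protein and integrated stress response 13 rose and 1 fell. DDIT3, the factor CHOP, went from 18.1 and 17.4 to 82.9 and 80.8 CPM (log2 fold change 2.20, SE 0.36, adjusted p = 0.00161; MARS1 and MBD6 overlap it), and DDIT4, an inhibitor of mTOR, from 11.8 and 12.5 to 313 and 259.6 CPM (log2 fold change 4.56, SE 0.65, adjusted p = 0.000854). The gene that fell was CRELD2, from 48.2 and 46.8 to 19.5 and 15.2 CPM (ALG12 overlaps it). Without 1 Z2flag library 6 to 12 genes of this response were called higher.

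Of 26 heat-shock chaperones, 9 rose and none fell. They were the inducible members HSPA1A, HSPA1B, HSPA6, DNAJB1 (TECR overlaps it) and DNAJB4 (GIPC2 overlaps it), the small heat-shock proteins CRYAB, HSPB1 and HSPB8, and HSPA2. In all, 17 genes of the list did not pass. Among them HSPA8, HSP90AB1 and HSPD1, picked after their values were seen, had log2 fold changes of 0.2, 0.5 and 0.0. HSPA6, an inducible HSP70 that is nearly silent without stress, went from 0.0238 and 0.0281 CPM to 29.2 and 30.9 CPM (log2 fold change 9.94, SE 1.68, adjusted p = 0.00233), which is 2 counts over both subconfluent libraries and 1043 over both postconfluent ones (depth-scaled ratio 1164, 95% interval 321.5 to 9627, counting error only). Its call was lost without the filter on low counts and without either subconfluent replicate. HSPA1A, which has a near-identical copy in HSPA1B so that reads may be split, went from 46.1 and 54.6 to 428 and 302 CPM (log2 fold change 2.86, SE 0.51, adjusted p = 0.00246), and CRYAB from 0.143 and 0.141 to 18.5 and 9.32 CPM (log2 fold change 6.57, SE 0.98, adjusted p = 0.00102). With 1 Z2flag library left out, 3 to 9 chaperones were called higher, 3 without either subconfluent replicate, and 14 were higher and 1 lower without either postconfluent Z1flag library. Heat-shock factors bind inverted repeats of GAA. The 250 bases upstream of HSPA6 (chr1:161524290-161524539, plus strand, GRCh38.p14, RefSeq) are shown for this reason, with GAANNTTC and TTCNNGAA in capitals.
HSPA6: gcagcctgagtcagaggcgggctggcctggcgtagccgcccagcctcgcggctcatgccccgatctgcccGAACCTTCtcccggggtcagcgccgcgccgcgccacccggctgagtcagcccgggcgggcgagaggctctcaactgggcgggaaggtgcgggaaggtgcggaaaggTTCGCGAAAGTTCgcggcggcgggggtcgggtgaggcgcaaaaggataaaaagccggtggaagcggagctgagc

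The short elements in capitals were found in 39.1% of the 23 heat-shock promoters with an entry and in 10.0% of all 11697 windows. They were in 9.48% of the windows of genes that rose and 9.84% of those that fell. The longer element GAANNTTCNNGAA, or its complement on the other strand, was found in 17.4% of the 23 heat-shock promoters and in 0.257% of all windows. Of the 30 tested genes that hold it, 2 rose and 9 fell. Among all 11697 with an entry, 2089 rose and 2623 fell.

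Interferon-stimulated and MHC class I genes rose in 18 of 31 cases and fell in 1. HLA-B, a class I heavy chain (its locus overlaps HLA-C in the annotation, and class I genes share sequence), went from 8.41 and 8.50 CPM to 106 and 58.04 CPM (log2 fold change 3.28, SE 0.30, adjusted p = 0.000135). HLA-E went from 44.9 and 38.5 to 259 and 179.5 CPM (log2 fold change 2.39, SE 0.25, adjusted p = 0.000235), the peptide transporter TAP1 from 1.52 and 1.52 to 8.49 and 7.70 CPM and IFIT2, an antiviral protein, from 0.547 and 0.281 to 7.11 and 7.82 CPM (LIPA overlaps it). The light chain B2M, also a common reference gene, went from 254 and 267 to 822 and 637 CPM (log2 fold change 1.49, SE 0.22, adjusted p = 0.000897). Among 25 chemokine and NF-kB target genes 16 rose and none fell. CCL20, a chemokine for dendritic cells and lymphocytes, went from 3.73 and 3.12 to 40.9 and 12.99 CPM (log2 fold change 2.97, SE 0.47, adjusted p = 0.00134), CXCL16 from 16.5 and 17.8 to 39.9 and 34.4 CPM (MED11 overlaps it) and the cytokine IL32 from 22.03 and 37.5 to 220.0 and 72.7 CPM. Postconfluent replicate 1 carried the larger part: the list median stood at 1.68 above the subconfluent mean in replicate 1 and at 0.68 in replicate 2. The count of 16 was 4 without postconfluent replicate 1, 17 without postconfluent replicate 2 and 6 without either subconfluent replicate.

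Genes of the matrix and of cell contacts changed in both directions. Of 33 laminin, collagen and matrix genes, 16 rose and 6 fell, beside 18.3% and 19.3% of all genes tested. COL6A1, a chain of collagen VI, went from 13.1 and 10.4 CPM to 93.3 and 91.2 CPM (log2 fold change 2.97, SE 0.24, adjusted p = 9.76e-05), and its partner chain COL6A2 from 0.618 and 0.563 to 8.49 and 5.89 CPM. The basement membrane proteoglycan AGRN went from 85.9 and 85.1 to 237 and 197 CPM, and FN1, fibronectin, from 7457 and 5719 to 15054 and 10809 CPM (adjusted p = 0.0125; lost without postconfluent replicate 1 or subconfluent replicate 2). COL4A6, a basement membrane collagen, fell from 28.7 and 30.8 to 12.3 and 13.7 CPM (lost without postconfluent replicate 1). Of 34 genes of tight junctions, polarity and adhesion 9 rose and 4 fell, beside the same shares of all genes tested. The sealing claudin CLDN4 went from 77.1 and 68.1 to 507 and 293 CPM (log2 fold change 2.46, SE 0.27, adjusted p = 0.000276) and CLDN7 from 42.2 and 41.8 to 94.7 and 84.03 CPM (ELP5 overlaps it), whereas CLDN2, which forms cation pores in crypts, fell from 12.4 and 10.4 to 3.64 and 3.13 CPM (log2 fold change -1.75, SE 0.27, adjusted p = 0.00129; MORC4 overlaps it). With upper-quartile scaling 15 junction genes were called higher and 2 lower, and without 1 Z2flag library 4 to 10 were called higher and 2 to 4 lower; without either postconfluent Z1flag library 17 were called higher. Of 9 keratin genes tested, 3 rose and 3 fell. KRT20, at a low level, rose from 0.0238 and 0 to 1.38 and 0.120 CPM (log2 fold change 5.44, SE 1.55, adjusted p = 0.0202). This difference rests mainly on postconfluent replicate 1. The count of keratins called higher was 1 with at least 5 CPM in 2 libraries and 1 with the Z2flag libraries alone. Keratins KRT8 and KRT18 are the main intermediate filaments of simple epithelia, and their loci overlap each other. KRT8 went from 5866 and 7120.4 to 3631 and 1856 CPM and KRT18 from 3448 and 4439 to 1791 and 852 CPM (adjusted p = 0.0329 and 0.0172). Postconfluent replicate 2 was the lower in both, and the KRT8 call was lost in 6 settings, upper-quartile scaling and the fit without postconfluent replicate 2 among them, and that of KRT18 without postconfluent replicate 2 or subconfluent replicate 2. Of 26 effectors and targets of Hippo signalling, which reads cell density, 2 rose and 6 fell. The share that fell was near the 19.3% of all genes tested. CCN2, a target of YAP, went from 4.09 and 2.28 to 34.3 and 19.7 CPM (log2 fold change 3.08, SE 0.39, adjusted p = 0.000514), and the density-dependent YAP inhibitor PTPN14 from 325 and 369 to 135 and 142 CPM (log2 fold change -1.32, SE 0.19, adjusted p = 0.000946). Without 1 Z2flag library, 9 to 14 matrix genes were called higher and 1 to 3 lower, and 1 to 3 Hippo genes were called higher and 3 to 5 lower. The Hippo genes called higher numbered 4 without either postconfluent Z1flag library.

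Several RNAs with many reads changed. MALAT1 (chr11:65497688-65506516, plus strand), a nuclear long non-coding RNA, had 3218 and 3373 CPM in subconfluent and 22813 and 18933 CPM in postconfluent cells (log2 fold change 2.66, SE 0.28, adjusted p = 0.000246), the largest CPM difference of any called gene. NEAT1 (chr11:65422774-65445540, plus strand), the scaffold of paraspeckles, went from 117 and 79.4 to 1512 and 1204 CPM (log2 fold change 3.79, SE 0.39, adjusted p = 0.000229). LINC02260 and LINC01963, both of unknown role here, went from 20.7 and 15.6 to 1.21 and 0.962 CPM and from 20.98 and 26.3 to 2.70 and 2.71 CPM. RNU6-2, a copy of the spliceosomal U6 RNA with many near-identical copies, went from 51.4 and 52.1 to 2.04 and 3.85 CPM. PRKDC, the DNA-dependent protein kinase, fell from 908 and 949.8 to 300.0 and 252 CPM (log2 fold change -1.75, SE 0.19, adjusted p = 0.000296). MTCO3P12, a nuclear pseudogene of a mitochondrial gene, went from 1893 and 1829.7 to 614 and 497 CPM; with all mitochondrial identifiers at 0, and with MTATP6P1 overlapping it, the origin of its reads is uncertain. By class, 2496 of 13184 protein-coding genes rose and 3007 fell, and 172 of 997 lincRNAs rose and 123 fell. Chromosome 19 had 24.9% of its 1153 tested genes higher and 13.4% lower, chromosome 13 12.3% of 341 higher and 23.8% lower, and chromosome 18 11.2% of 286 higher and 21.3% lower. Ordered by level in 4 equal groups, the lowest group had 17.1% higher and 7.98% lower, and in the highest group 15.8% rose and 26.2% fell.

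**Figure D3:**
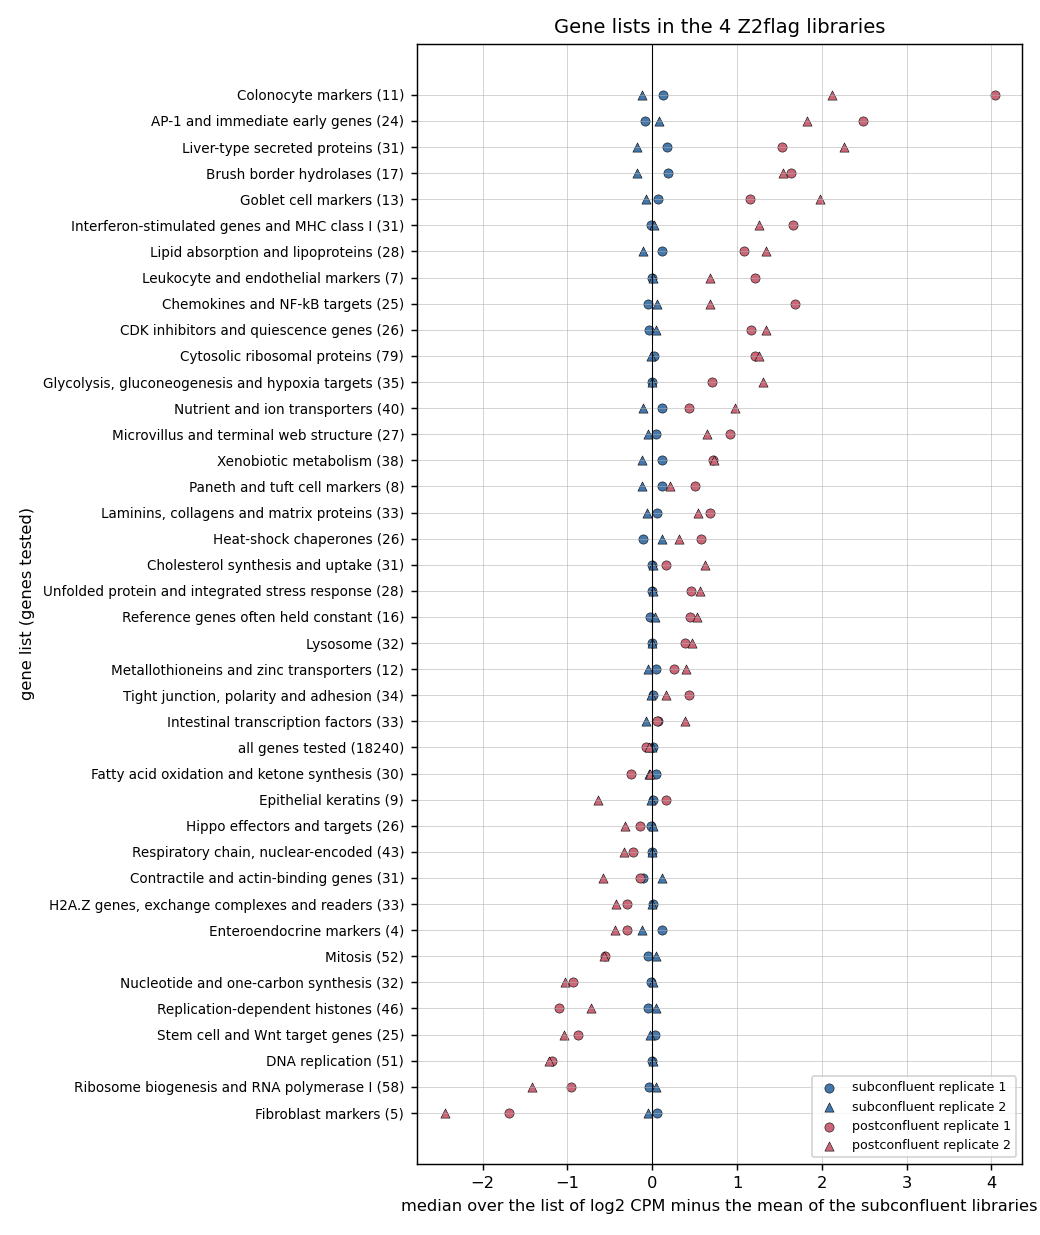
Median over each gene list of log2 CPM minus the mean of the subconfluent libraries, for the 4 Z2flag libraries; blue is subconfluent, red postconfluent, circles replicate 1 and triangles replicate 2, and the number of genes tested stands after each name. All genes tested sit near 0, ribosomal proteins above 1 in both postconfluent libraries, and colonocyte markers at 4.04 in replicate 1 and 2.12 in replicate 2.

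The postconfluent replicates were less alike than the subconfluent ones. The standard deviation over genes of the log2 difference between replicates was 0.627 for the postconfluent and 0.331 for the subconfluent pair, and 1923 against 334 genes were over 2-fold apart. Several genes were higher in postconfluent replicate 1 than in replicate 2. CEACAM6, a cell surface adhesion protein of colon cancer, stood at 1.07 and 1.24 CPM in subconfluent and 115 and 7.58 CPM in postconfluent libraries (log2 fold change 5.73, SE 1.09, adjusted p = 0.00325; lost without the filter on low counts and without either subconfluent replicate), and CEACAM5 at 0.119 and 0.0281 and then 46.1 and 4.39 CPM (lost without the filter on low counts). EDN1, endothelin, was read at 4.90 and 7.32 CPM and then at 56.01 and 8.06 CPM, so that replicate 2 lay near the subconfluent level; its call (adjusted p = 0.0298) was lost in 8 settings, the fit without postconfluent replicate 1 among them. TAGLN, an actin-binding smooth muscle protein, fell from 540.3 and 1086 to 169 and 20.8 CPM (log2 fold change -3.10, SE 0.76, adjusted p = 0.0108; PCSK7 overlaps it; lost without subconfluent replicate 2, without postconfluent Z1flag replicate 2 and without the filter), and NPPB, a natriuretic peptide, stood at 22.7 and 37.3 and then at 33.1 and 3.67 CPM, where the states overlap. In the other direction, ITIH2, a plasma protein that binds hyaluronan, went from 0.737 and 1.49 to 14.3 and 60.5 CPM (log2 fold change 5.08, SE 0.66, adjusted p = 0.000563), ZG16, a goblet granule lectin, from 6.89 and 5.40 to 19.4 and 59.7 CPM, and APOC3 and ALB were also higher in replicate 2. List medians differed between the replicates too: chemokines 1.68 and 0.68, liver-type proteins 1.53 and 2.27, glycolysis and hypoxia genes 0.71 and 1.31, each above the subconfluent mean in replicates 1 and 2.

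**Figure D4:**
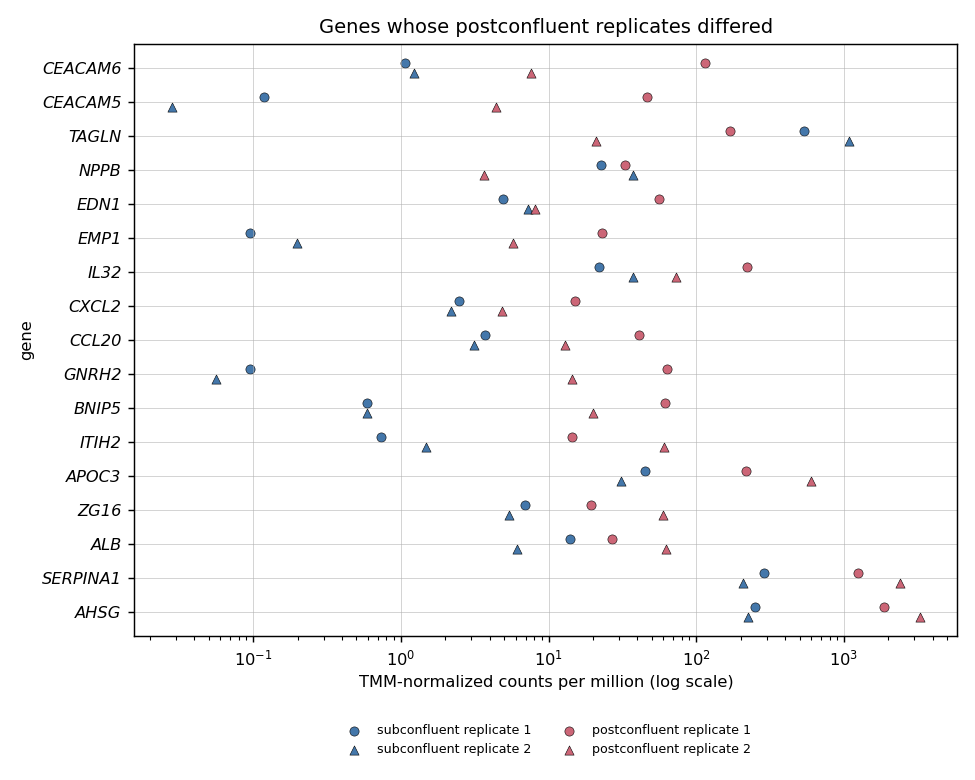
Levels in TMM-normalized CPM, on a log axis, of 17 genes whose postconfluent replicates lie apart; blue is subconfluent, red postconfluent, circles replicate 1 and triangles replicate 2. From CEACAM6 to BNIP5 the red circle lies to the right of the red triangle, and from ITIH2 to AHSG to its left.

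The Z1flag line was compared in the same way with its own 4 libraries. There 7380 genes were called (40.5%), and 5179 genes were called in the same direction in both lines, which is 75.5% of the Z2flag calls and 70.2% of the Z1flag calls. The 1 gene called in opposite directions was SNORD116-24, at -2.14 in Z2flag and 1.85 in Z1flag, and its test of the difference did not pass (adjusted p = 0.799). The difference of the confluence change between the lines passed in 0 genes by edgeR, 0 by DESeq2 and 0 by limma voom; 902 genes, 4.95%, had an unadjusted p under 0.05 by edgeR, and the smallest adjusted p was 0.799. So no gene can be called particular to the Z2flag line with these libraries. Without a filter on low counts 41 genes passed, and 190 passed (141 more positive and 49 more negative in Z2flag) when postconfluent Z1flag replicate 2 was left out. In these data the list medians of Z2flag and Z1flag were -0.48 and -0.98 for mitosis, 0.51 and -0.07 for heat-shock chaperones, 1.28 and 0.49 for chemokine and NF-kB genes, 1.89 and 3.19 for liver-type proteins and 0.65 and 1.77 for xenobiotic metabolism, with no test of these differences. Of the genes with the smallest p for the difference, RNU4-1, a copy of the spliceosomal U4 RNA, changed by 1.73 in Z2flag and 0.59 in Z1flag on the log2 scale, NAMPT, which makes the NAD precursor, by 0.77 and -0.42, and LHPP, a phosphatase, by 1.05 and 2.52. None of the 3 passed the adjusted test. Across the 18240 genes the log2 changes of the lines had a Pearson r of 0.852, given as a description, since genes are not independent replicates.

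**Figure D5:**
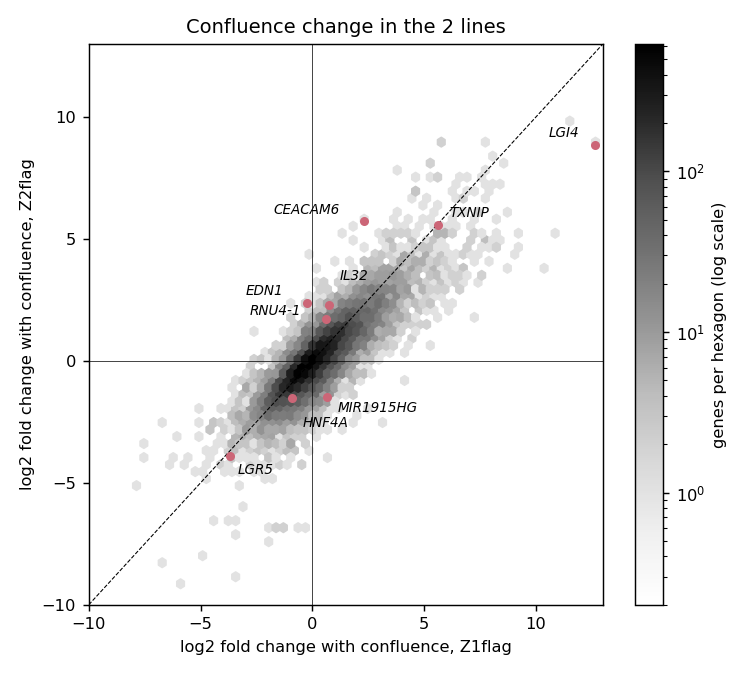
Log2 fold change with confluence in Z1flag (horizontal) and Z2flag (vertical) for the 18240 genes tested, as hexagons shaded by the number of genes on a log scale; the dashed line marks equal change and named genes are in red. The changes in the lines had a Pearson r of 0.852, which does not measure closeness to the dashed line. The named genes away from that line did not pass the test of the difference.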

How the data were processed

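RNA-seq counts of the 4 Z2flag libraries were compared, with the 4 Z1flag libraries in the same fit. The authors deposited raw gene counts made with HTSeq after alignment with STAR 2.5.2b to hg38, per the submitters' processing notes; the sources used here do not state the mode or strand setting of the counting. Gene identifiers (58302) were matched to GENCODE release 29 (58039 found) and to a gene name table (57532 with a symbol). The class rows of HTSeq were dropped; reads outside genes were 22.5 to 24.1% of those listed in Z2flag libraries. Genes were kept by filterByExpr (minimum count 10, minimum total 15), which left 18240.

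Group means of the 4 groups were fitted to all 8 libraries with edgeR 4.0.16 (quasi-likelihood, robust, trimmed mean of M-values; 4 residual degrees of freedom) in R 4.3.3, and p-values were adjusted by the Benjamini-Hochberg method over all genes, with a threshold of 0.05. The test was run on simulated data of 18240 genes: of 100 genes changed 2-fold 24% were recovered and of 100 changed 4-fold 70%. Among the unchanged genes there were 11 false calls. No other genes were changed and directions were random, whereas 37.6% of genes were called in the data. The simulation therefore cannot give the recovery or the share of false calls in the data, nor the effect of scaling. Alternatives were DESeq2 1.42.0, limma voom 3.58.1, other scalings and filters, the replicate number as a block, the Z2flag libraries alone, leaving out each library, and, added after seeing the depths, thinning all libraries to 17063826 counts.

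The comparison and the 39 gene lists (1256 genes) were chosen with earlier results of these data known, so lists are described by counts and medians, with no test of the list. Named genes are the H2A.Z genes and the 10 highest and 10 lowest fold changes of called genes with a mean of at least 5 CPM and no overlap. The 6 largest CPM differences in each direction and up to 4 members of each list by p, with the first of the other direction, were added. So were 6 genes for the difference between lines, 3 long non-coding RNAs in each direction and 5 genes per pair of replicates that lay farthest apart. Epithelial markers, genes shown for their sequence and genes that complete a count are named outside these rules. Further genes picked after their values were seen are marked so. In marker lists the most abundant member is also named. Replicate numbers were not used to pair samples: deviations of same-numbered libraries correlated between -0.18 and 0.178. Promoter sequences come from RefSeq (GRCh38.p14). Values of some genes that this rule names are not reported here.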

Additional observations from a re-analysis of the deposited data

How the results depend on the processing

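Among the named genes, over all alternatives run, 3413 values stayed on their side of the threshold, 138 no longer passed, 7 passed only in the alternative and 0 that had passed reversed. The Z2flag counts of 3335 higher and 3529 lower were 3464 and 3190 with DESeq2, 3616 and 3213 with RLE scaling, 3352 and 3619 with voom, 3568 and 4034 without a filter, 2487 and 2570 with at least 5 CPM in 2 libraries, 4428 and 4161 with the Z2flag libraries alone, and 3463 and 2858 after thinning. At 2-fold and more the stricter filter, which tests fewer genes, gave 1635 higher and 1405 lower. Leaving out 1 of the 8 libraries gave between 1313 and 4885 higher and between 1581 and 4223 lower, and between 347 and 751 listed genes called, against 616. At 2-fold, leaving out 1 library gave 1305 to 3434 higher and 1418 to 2230 lower. The causes were not tested. For Z1flag, 2177 were lower with its libraries alone, and leaving out 1 library gave 1801 to 4697 higher and 1956 to 4165 lower. The difference between lines passed in 41 genes without a filter and in 0 to 190 when 1 library was left out.

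With the replicate number as a block, 3216 Z2flag genes were higher and 3411 lower. Same-numbered Z2flag libraries correlated at -0.0892 in their deviations from the group means. With 2 libraries per group, this value over all genes cannot decide whether same-numbered libraries share an experiment.

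Depth limits the low genes: at 1 to 3 counts in a state a fold change depends on the prior count, and intervals cover counting error only.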

Other observations

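Further gene groups of the Z2flag line held genes called in either direction. Of 31 contractile and actin-binding genes, 5 rose and 6 fell, shares near the 18.3% and 19.3% of all genes tested. As a group they did not stand out from that background. TPM2, a tropomyosin, rose from 5.94 and 4.90 CPM to 27.5 and 29.95 CPM (log2 fold change 2.40, SE 0.25, adjusted p = 0.000234). TNNT1, a slow-muscle troponin, rose from 4.87 and 2.53 to 18.3 and 19.2 CPM, while the muscle genes MYBPH and MYL7 fell. Leaving out 1 of the 4 Z2flag libraries gave 2 to 8 contractile genes higher and 4 to 6 lower, and leaving out either postconfluent Z1flag library 8 higher and 8 or 9 lower. Of 32 lysosomal genes, 14 rose and 6 fell, and the share that fell was near the 19.3% of all genes tested. LIPA, the acid lipase, rose from 73.8 and 67.7 to 157 and 281 CPM (log2 fold change 1.63, SE 0.26, adjusted p = 0.00146; IFIT2 overlaps it) and GAA, the acid glucosidase, from 20.3 and 15.98 to 40.4 and 47.8 CPM, whereas SMPD1, acid sphingomyelinase, fell from 22.7 and 23.7 to 10.3 and 7.64 CPM. Without either subconfluent library, 4 or 2 lysosomal genes were called higher, and without 1 of the 4 Z2flag libraries 2 or 3 were called lower.

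Of 20 listed metallothionein and zinc transporter genes 12 were tested, of which 4 rose and 1 fell. The metallothionein genes MT1A, MT1E, MT1G, MT1H, MT1M, MT1X and MT2A were not among those tested. SLC39A4, the zinc importer of the enterocyte surface, rose from 0.689 and 0.422 CPM to 6.73 and 2.83 CPM and SLC39A5, the basolateral importer, from 82.3 and 69.02 to 143 and 189 CPM (ANKRD52 overlaps it); both calls were lost without subconfluent replicate 2, where 0 genes of the list rose. The call of the gene that fell was lost without any 1 of the 4 Z2flag libraries. Of 8 Paneth and tuft cell markers tested 1 rose, PLA2G2A, from 0.166 and 0.225 to 2.59 and 1.74 CPM (log2 fold change 3.45, SE 0.55, adjusted p = 0.00134), and 2 fell; none was called lower without any 1 of the 4 Z2flag libraries or after thinning. Of 16 genes often held as constant references, 4 rose and 1 fell: RPLP0 rose from 1249 and 1253 to 2551 and 2804 CPM (log2 fold change 1.10, SE 0.21, adjusted p = 0.00318), and RPL13A and B2M rose. The postconfluent and subconfluent libraries of these 3 genes did not overlap. In this list 9 genes were called higher without either postconfluent Z1flag library and in the fit of the Z2flag libraries alone, and 7 with upper-quartile scaling or the stricter filter.

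Genes that differed most between the subconfluent replicates were read at higher levels in replicate 1 for CYP1A1, a target of the aryl hydrocarbon receptor, at 60.2 and 18.6 CPM, AFP, alpha-fetoprotein, at 21.2 and 9.62 CPM, and INMT at 19.5 and 9.54 CPM, and in replicate 2 for RORA, at 11.003 and 22.7 CPM (RORA-AS1 overlaps it).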
